A study of Mus musculus with 3 samples.

Results

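The regions described here lie at 10 imprinted loci of the mouse whose control regions carry DNA methylation on the maternal chromosome: Mcts2, Nnat and Gnas on chromosome 2, Peg10, Mest and Nap1l5 on chromosome 6, and Peg3, Snrpn, Inpp5f and Kcnq1ot1 on chromosome 7. Each locus is a fixed window of 40 to 70 kb on build mm9, 540 kb in all, and a listed region was assigned to it when its start lay inside. Of the 88857 regions in the 3 lists of the series, 54 fell in these windows. They were 11 of 45956 control regions, 17 of 22031 ZFP57 regions and 26 of 20870 KAP1 regions.

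The study performed chromatin immunoprecipitation and sequencing (ChIP-seq) in mouse embryonic stem (ES) cells. The control group was a ChIP with an antibody against the HA tag in ES cells with no transgene, and the ZFP57 group was the same HA ChIP in ES cells expressing HA-tagged ZFP57. For the KAP1 group an antibody against KAP1 (RBCC) was used in E14 ES cells, an established line, also with no transgene. Each group had 1 library, so no difference between groups has a replicate check and no test was made. The promoter that drives the tagged protein, its level and the ES line of both HA libraries are not stated in the labels. The antibody differs between KAP1 and the control, and so possibly does the line, so a difference between those lists cannot be told apart from either. The ZFP57 and KAP1 libraries come from different cells, so a shared position is not a measure of both proteins on the same chromatin. The lists also do not separate the maternal from the paternal allele. Each list gives positions only, all regions are 150 bp wide, and depth and peak height are unknown.

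An imprinted gene is expressed from a single parental chromosome. At the loci described here the germline differentially methylated region acquires its methylation in the oocyte, it usually covers the promoter of a transcript, and that transcript is then made from the unmethylated paternal copy. ZFP57 is a KRAB zinc finger protein that recognises the methylated hexamer TGCCGC, and KAP1 (TRIM28) is the corepressor it recruits. KAP1 in turn brings a histone methyltransferase and DNA methyltransferases, and the complex is known for keeping the methylation mark through the early embryo and in ES cells.

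Because the hexamer is the sequence that ZFP57 reads, promoters of the members were searched for it in the RefSeq table of build GRCm38.p6, which holds 250 bases before and 50 bases after each transcription start. Sequence of build mm9 under the ChIP regions was not used here, and positions on GRCm38.p6 cannot be set against the mm9 positions of the regions. Of the 10 genes 9 had an entry, with 17 promoters in all, and Peg10 was not matched. TGCCGC on either strand (GCGGCA on the other strand) was present in at least 1 promoter of 5 of the 9 genes, beside 13.1% of the 27025 genes in the table. Counted by promoter, it was present in 6 of 17, beside 11.6% of all 32851 promoters. CG-rich promoters hold it more often: among the 11378 promoters with at least 15 CG dinucleotides the share was 25.1%. Among the members' 10 such promoters it was present in 5, of which a Mest pair overlaps almost completely. Of those without it, a Gnas pair also overlaps almost completely. The minimum of 15 was chosen after the values were seen. The promoters of 4 genes are printed because they hold the hexamer within a CG-rich sequence. Each runs 5′ to 3′ on the gene's strand, and capitals mark the hexamer on either strand.
Mcts2, chr2:152686898-152687197, plus strand, GRCm38.p6: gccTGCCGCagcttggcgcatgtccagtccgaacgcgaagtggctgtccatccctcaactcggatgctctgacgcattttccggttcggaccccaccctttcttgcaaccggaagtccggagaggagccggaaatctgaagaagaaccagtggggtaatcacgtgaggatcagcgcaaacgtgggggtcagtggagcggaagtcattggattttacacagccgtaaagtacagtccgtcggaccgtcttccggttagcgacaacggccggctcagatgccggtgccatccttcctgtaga
Nnat, chr2:157559828-157560127, plus strand, GRCm38.p6: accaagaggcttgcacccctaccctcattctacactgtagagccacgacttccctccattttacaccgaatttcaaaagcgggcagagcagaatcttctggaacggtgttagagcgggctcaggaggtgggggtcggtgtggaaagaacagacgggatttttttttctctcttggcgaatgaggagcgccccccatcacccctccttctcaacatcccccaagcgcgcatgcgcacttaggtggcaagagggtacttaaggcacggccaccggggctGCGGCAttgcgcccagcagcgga
Mest, chr6:30737800-30738099, plus strand, GRCm38.p6: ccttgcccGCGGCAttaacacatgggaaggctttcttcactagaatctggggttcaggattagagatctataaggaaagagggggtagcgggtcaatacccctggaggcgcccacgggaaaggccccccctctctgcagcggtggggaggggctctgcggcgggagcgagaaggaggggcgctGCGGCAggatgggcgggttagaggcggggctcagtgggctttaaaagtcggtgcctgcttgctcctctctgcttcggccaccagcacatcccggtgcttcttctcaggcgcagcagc
Nap1l5, chr6:58907077-58907376, minus strand, GRCm38.p6: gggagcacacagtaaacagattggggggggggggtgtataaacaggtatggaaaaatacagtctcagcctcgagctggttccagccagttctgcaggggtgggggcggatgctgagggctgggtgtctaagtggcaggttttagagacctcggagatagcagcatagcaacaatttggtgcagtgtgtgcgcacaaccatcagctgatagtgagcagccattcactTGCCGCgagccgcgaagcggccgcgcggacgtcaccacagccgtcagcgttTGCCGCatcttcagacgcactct
Counted from 1 at the printed 5′ end, the hexamer starts at position 4 in Mcts2, 278 in Nnat, 9 and 184 in Mest, and 227 and 278 in Nap1l5. The printed Mest and Nap1l5 promoters and the other promoter of the Mest pair each held 2 copies, and 1.53% of all promoters held 2 or more. The remaining Mest promoter, chr6:30733256-30733555 with 8 CG dinucleotides, had no match. A single copy was present in 1 of the 4 Snrpn promoters, in a sequence with 7 CG dinucleotides. No match was found in the 4 Gnas promoters or in those of Peg3, Inpp5f and Kcnq1ot1. This says only that these letters are absent from those 300 bases. Entries were taken by gene name and not matched to the imprinted transcript, so some may be promoters of other transcripts of the gene.

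ZFP57 regions were listed at all 10 loci and KAP1 regions at all 10, whereas 7 loci held a control region. For scale, the genome was divided into 51629 windows of 50 kb, and 15.5% of them held a ZFP57 region, 11.7% a KAP1 region and 39.2% a control region. At every one of the 10 loci a ZFP57 region overlapped a KAP1 region by at least 1 bp, which was the case in 3.66% of the 50 kb windows. All 10 also held such a pair in which neither region overlapped a control region, compared with 1.85% of windows. At Mest, Peg3 and Snrpn the window held the pair and 0 control regions, a combination seen in 0.289% of windows. The 10 loci are textbook imprints that were chosen with earlier results of these lists known, so these shares give scale and are no test.

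**Figure D1:**
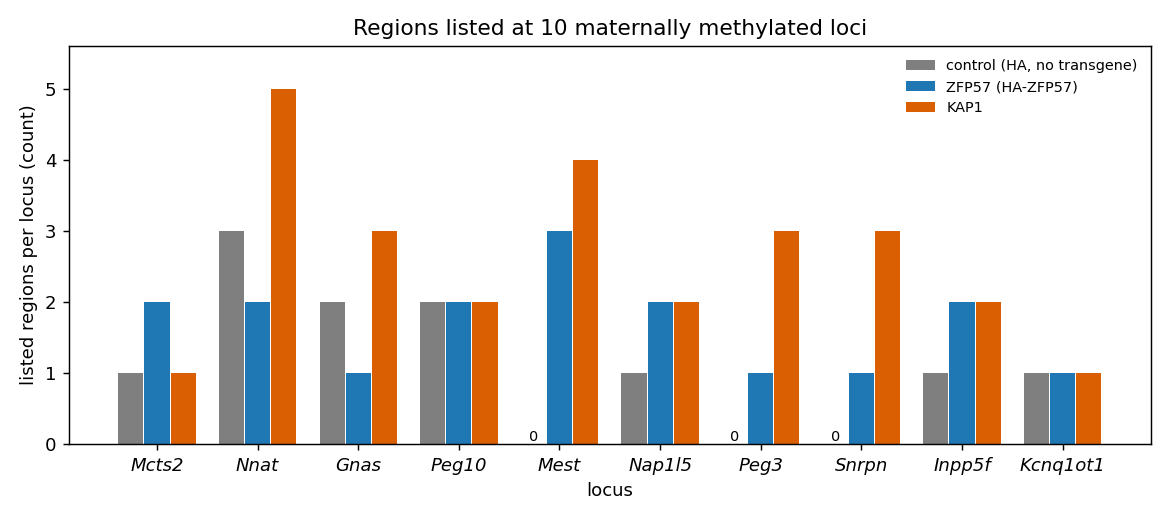
Number of listed regions (vertical axis, count) at each of the 10 loci (horizontal axis) in the control, ZFP57 and KAP1 lists, 1 library each. ZFP57 ranged from 1 to 3 and KAP1 from 1 to 5 regions per locus, while the control had 0 at Mest, Peg3 and Snrpn and 3 at Nnat.

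The members take up different shares of the 3 lists. The loci account for 0.0239% of control regions, 0.0772% of ZFP57 regions and 0.125% of KAP1 regions. Their sums carry exact 95% Poisson intervals of 5.49 to 19.7 for the 11 control regions, 9.90 to 27.2 for the 17 ZFP57 regions and 17.0 to 38.1 for the 26 KAP1 regions, which cover counting error only. KAP1 regions were thus 1.53 times as many as ZFP57 regions at these loci, where in the whole lists the ratio was 0.947. They were the more numerous at 5 loci, as they were in 34.0% of the 1889 background windows with an overlapping pair, and the numbers were equal at 4. The Poisson intervals of the ZFP57 and KAP1 sums overlap, which is no test of the ratio, and neighbouring regions of a locus are not independent.

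Snrpn encodes a protein of the splicing machinery, and its control region governs the Prader-Willi and Angelman cluster. In the window from 67.12 to 67.18 Mb of chromosome 7, 1 ZFP57 region was listed at chr7:67149651-67149800. There were 3 KAP1 regions, of which chr7:67149607-67149756 overlapped the ZFP57 region by 106 bp, with midpoints 44 bp apart. The other KAP1 regions lay 21 and 215 bp from the ZFP57 region, so the ZFP57 region sat inside a KAP1 stretch of 686 bp. The KAP1 region 21 bp away also overlapped chr7:67149607-67149756. With such regions merged, the KAP1 regions at the 10 loci numbered 25 rather than 26. No control region was listed in the window, and the nearest to the site was 99.5 kb away, the longest such distance among the 10 loci.

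Kcnq1ot1 is the long antisense RNA that starts within an intron of Kcnq1 and silences neighbours in its cluster. Its window, 150.45 to 150.51 Mb on chromosome 7, held 1 region of each list. The ZFP57 region chr7:150481629-150481778 and the KAP1 region chr7:150481661-150481810 overlapped by 118 bp. The control region lay 22.4 kb from both and overlapped neither.

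Gnas encodes the stimulatory G protein alpha subunit, in a complex with several promoters and more than a single germline mark. In the window from 174.1 to 174.17 Mb on chromosome 2, the ZFP57 list had 1 region, chr2:174121611-174121760. It overlapped KAP1 region chr2:174121578-174121727 by 117 bp. Further KAP1 regions lay 472 bp and 3.53 kb from it. The ZFP57 region stood alone over a long stretch, its nearest neighbour in its own list being 279 kb away. The 2 control regions lay 13.1 kb or more from the ZFP57 region and overlapped nothing.

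Peg3 encodes a zinc finger protein known for effects on growth and maternal behaviour, and it shares its promoter region with Usp29. Between 6.65 and 6.71 Mb on chromosome 7 there was 1 ZFP57 region, chr7:6682016-6682165, which overlapped KAP1 region chr7:6682000-6682149 by 134 bp. A further pair of KAP1 regions lay 326 and 674 bp to the same side of the ZFP57 region. As at Snrpn, KAP1 covered a longer stretch (990 bp from first to last base) than the 150 bp of ZFP57. The nearest control region to the site was 46.1 kb away.

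Peg10 is a gene of retrotransposon origin needed in the placenta, and it lies next to the imprinted gene Sgce. Its window, 4.67 to 4.72 Mb on chromosome 6, had 2 regions in each list, at positions that differed in their relation to the control. At the first, ZFP57 region chr6:4697962-4698111 and KAP1 region chr6:4698038-4698187 overlapped by 74 bp, and the nearest control region was 1.74 kb away. At the second, ZFP57 region chr6:4712511-4712660 and a KAP1 region were both listed over a control region, with midpoints 42 and 30 bp from the control midpoint. The second position therefore had all 3 lists, and only the first was free of the control.

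Mest encodes a protein of the hydrolase fold family and is known for promoting fetal growth. Its window, 30.66 to 30.71 Mb on chromosome 6, had the most ZFP57 regions of the 10 loci: 3, together with 4 KAP1 regions and 0 control regions. The ZFP57 regions were chr6:30687583-30687732, chr6:30688243-30688392 and chr6:30688750-30688899, and each overlapped KAP1. The middle ZFP57 region met 2 KAP1 regions, by 92 and 56 bp, which are separated from each other by 2 bp. ZFP57 covered 1317 bp and KAP1 1423 bp from first to last base, so the extents were nearly equal here, unlike Peg3 and Snrpn. The nearest control region was 64.2 kb away.

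At the remaining 4 genes the imprinted transcript starts within a larger transcription unit, an intron of another gene for Mcts2, Nap1l5 and Nnat and the gene itself for Inpp5f. Mcts2, a retrogene in an intron of H13 and related to a translation factor, had 2 ZFP57 regions, 1 KAP1 region and 1 control region in the window from 152.49 to 152.53 Mb on chromosome 2. ZFP57 region chr2:152512636-152512785 and KAP1 region chr2:152512633-152512782 overlapped by 147 bp, with midpoints 3 bp apart. The other ZFP57 region, chr2:152513362-152513511, overlapped the control region by 122 bp and no KAP1 region. It was the only ZFP57 region of the 17 without KAP1, and Mcts2 was the only locus with more ZFP57 than KAP1 regions. With the control region 548 bp from the shared pair, this was the smallest gap among the pairs that overlapped no control region.

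Nap1l5, a retrogene of the nucleosome assembly family in an intron of Herc3, had the same number of ZFP57 and KAP1 regions, 2 each, between 58.83 and 58.88 Mb on chromosome 6. The ZFP57 regions chr6:58856893-58857042 and chr6:58857118-58857267 were 75 bp apart. Each overlapped a KAP1 region, by 134 and 146 bp, with midpoints 16 and 4 bp apart. The control region of this window lay 14.3 kb away.

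At Inpp5f, a phosphoinositide phosphatase gene whose imprinted variant starts from an internal promoter, the window from 135.81 to 135.86 Mb on chromosome 7 had 2 ZFP57, 2 KAP1 and 1 control region. ZFP57 region chr7:135831494-135831643 overlapped its KAP1 counterpart by 142 bp, and the control was 11.9 kb away. At chr7:135843563-135843712 the ZFP57 and KAP1 lists held the identical 150 bp interval, and the control region lay over it with its midpoint 20 bp away. As at Peg10, 1 position of the locus was free of the control and 1 was common to all 3 lists.

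Nnat encodes neuronatin, a small membrane protein, within an intron of Blcap. In its window, 157.36 to 157.41 Mb on chromosome 2, KAP1 reached its highest count with 5 regions, beside 2 ZFP57 and 3 control regions. ZFP57 regions chr2:157385523-157385672 and chr2:157386103-157386252 each overlapped a KAP1 region, by 133 and 131 bp. KAP1 regions also flanked them 773 bp to one side and 607 bp to the other, and the fifth lay 20.5 kb away from ZFP57. All 3 control regions lay outside the pairs, the nearest 853 bp from the outer KAP1 region. The site with its KAP1 flanks covered 2410 bp, the longest of the 10.

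**Figure D2:**
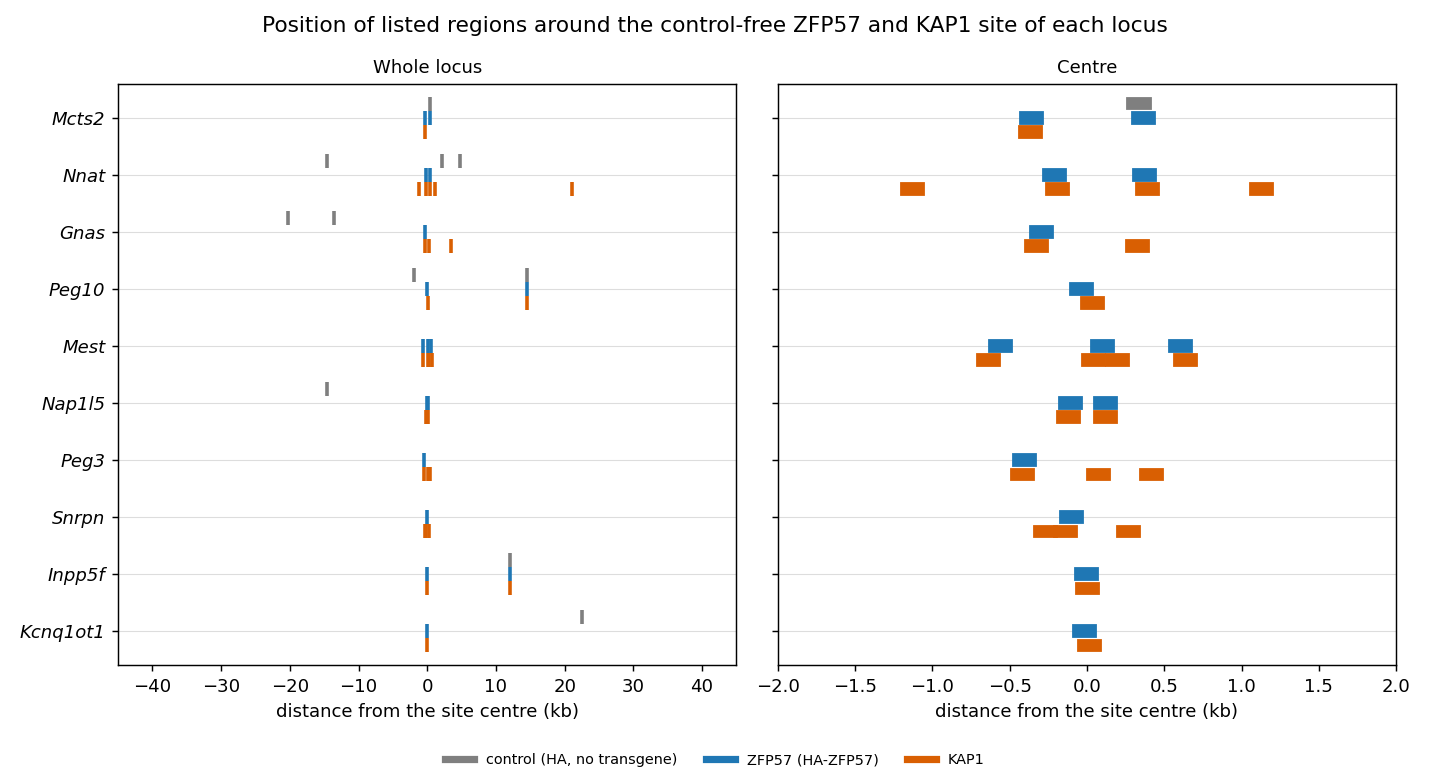
Position of every listed region of the 10 loci (rows) as distance in kb from the centre of the site with a control-free ZFP57 and KAP1 pair, over the whole locus (left, marks at midpoints) and within 2 kb (right, regions drawn to scale). Each row has a ZFP57 region over a KAP1 region near 0, and the second positions of Peg10 and Inpp5f, 14.4 and 11.9 kb from the first by ZFP57, have all 3 lists.

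Across the loci, 16 of the 17 ZFP57 regions overlapped a KAP1 region, a share of 94.1% (exact 95% binomial interval 71.3 to 99.9%), while in the whole ZFP57 list the share was 44.7%. Overlap with a control region was the reverse: 3 of 17 ZFP57 regions (17.6%, interval 3.80 to 43.4%), beside 49.0% in the whole list. ZFP57 regions on KAP1 and not on the control were 14 of 17 (82.4%, interval 56.6 to 96.2%) and 9.80% of the list. Regions of 1 locus are neighbours and not independent, and the intervals cover counting error only.

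For KAP1, 17 of the 26 regions overlapped ZFP57 (65.4%, interval 44.3 to 82.8%), beside 47.5% in the list, and 2 of 26 overlapped the control (7.69%, interval 0.946 to 25.1%), beside 47.1%. The remaining 9 overlapped neither list (for ZFP57 it was 0 of 17 regions, beside 41.2% of its list), a class that holds 42.2% of all KAP1 regions. They belonged to Nnat (3), Gnas (2), Peg3 (2) and Snrpn (2), and apart from the distant Nnat region and the outer Gnas region they lay within 773 bp of a ZFP57 region. Of the 11 control regions, 3 overlapped ZFP57 (27.3%, beside 23.6% in the control list) and 2 overlapped KAP1 (18.2%, beside 21.2%).

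There were 17 overlapping ZFP57 and KAP1 pairs, of which 15 were free of the control. Their midpoints were 19 bp apart at the median and at most 94 bp, and 13 of 17 were within 50 bp. Over all 10269 pairs of the 2 lists, 67.2% were within 50 bp with a median of 27 bp. The control-free pairs had a median of 29 bp with 11 of 15 within 50 bp, beside a median of 30 bp and 66.6% for all 2011 control-free pairs. The test of this difference was not made, since pairs of 1 library each are no replicates.

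Most ZFP57 and KAP1 regions at these loci lay over 10 kb from the nearest control region. The median distance from a member ZFP57 region to the nearest control region was 13.1 kb, where the median of the whole ZFP57 list was 17 bp. For KAP1 the medians were 14.4 kb and 46 bp. A distance over 10 kb was found for 10 of 17 ZFP57 regions (19.8% in the list) and 18 of 26 KAP1 regions (17.3% in the list). Those nearer than that were at Mcts2, Nnat and Peg10, apart from the shared position of Inpp5f. Measured from the control, the members were nearer than the list. The 11 control regions had a median of 4.24 kb to the nearest ZFP57 region, beside 21094 bp in the whole control list. To the nearest KAP1 region it was 3.48 kb, beside 39507 bp. These short distances follow in part from the selection, since each member control region lies in a window with ZFP57 and KAP1 regions.

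**Figure D3:**
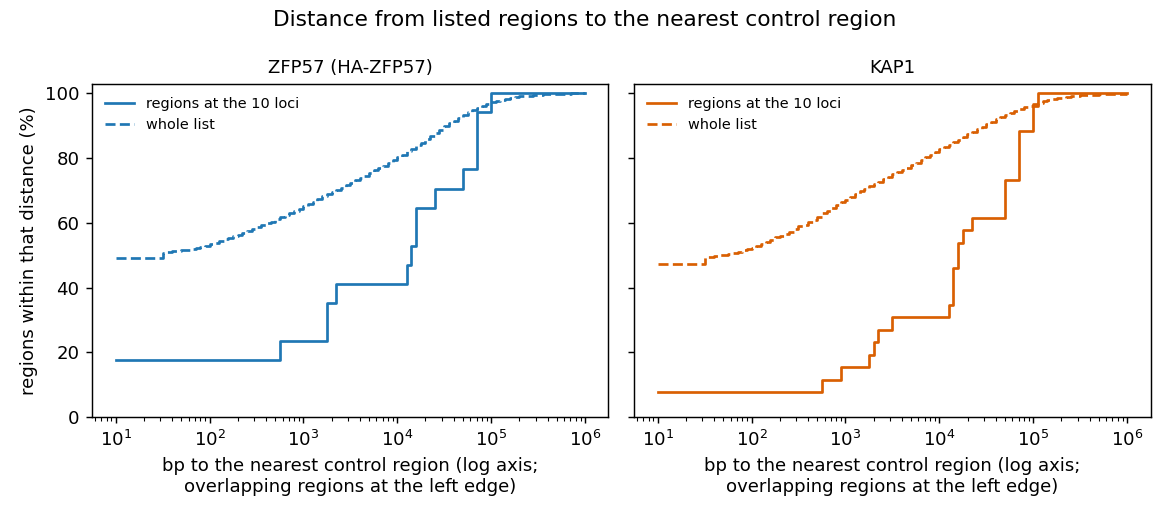
Cumulative share of ZFP57 (left) and KAP1 (right) regions (vertical axis, percent) within a given distance of the nearest control region (horizontal axis, bp, log scale), for the regions at the 10 loci (solid) and the whole list (dashed), with overlapping regions at the left edge. The solid lines start at 17.6% and 7.69% and stay below the dashed lines over most of the axis. The dashed lines start at 49.1% and 47.2%, with touching regions included.

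The surroundings were compared through the 500 kb on each side of every window. The 10 pairs of flanks held 245 control, 124 ZFP57 and 122 KAP1 regions, which is 1.23, 0.620 and 0.610 regions per 50 kb. Inside the windows the densities were 1.02, 1.57 and 2.41 per 50 kb. By these sums the control was the densest list beside the windows and the least dense within them, while ZFP57 and KAP1 were nearly equal beside them. The control list is also the longest, with 45956 regions against 22031 for ZFP57 and 20870 for KAP1. The order did not hold at every locus. KAP1 was above the control beside Peg3 and Snrpn, and the control was above ZFP57 inside Nnat and Gnas. At the 3 loci with the densest flanks, given next, those flanks held 79 ZFP57 and 99 KAP1 regions, and at the other 7 they held 45 and 23. KAP1 density was higher in the window than in its flanks at 9 loci and lower at Nap1l5. ZFP57 density was higher at 7 loci, equal at Nap1l5 and lower at Peg3 and Snrpn. Control density was higher at 5 loci and lower at 5.

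The flanks themselves differed in density, and 3 loci with dense flanks were singled out after their values were seen. At Nap1l5 they held 49 control, 40 ZFP57 and 46 KAP1 regions, at Peg3 23, 21 and 24, and at Snrpn 22, 18 and 29. The other 7 loci had 3 to 9 ZFP57 and 1 to 7 KAP1 regions beside 14 to 28 control regions. Nnat and Mest had the barest KAP1 surroundings, 1 region each, against 5 and 4 within their windows. The control overlapped 46.0% of the flanking ZFP57 regions and 42.6% of the flanking KAP1 regions, near the 49.0% and 47.1% of the whole lists. On the KAP1 list and not on the control were 15 of 124 flanking ZFP57 regions (12.1%). This compares with 9.80% of the whole ZFP57 list and 14 of 17 in the windows.

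**Figure D4:**
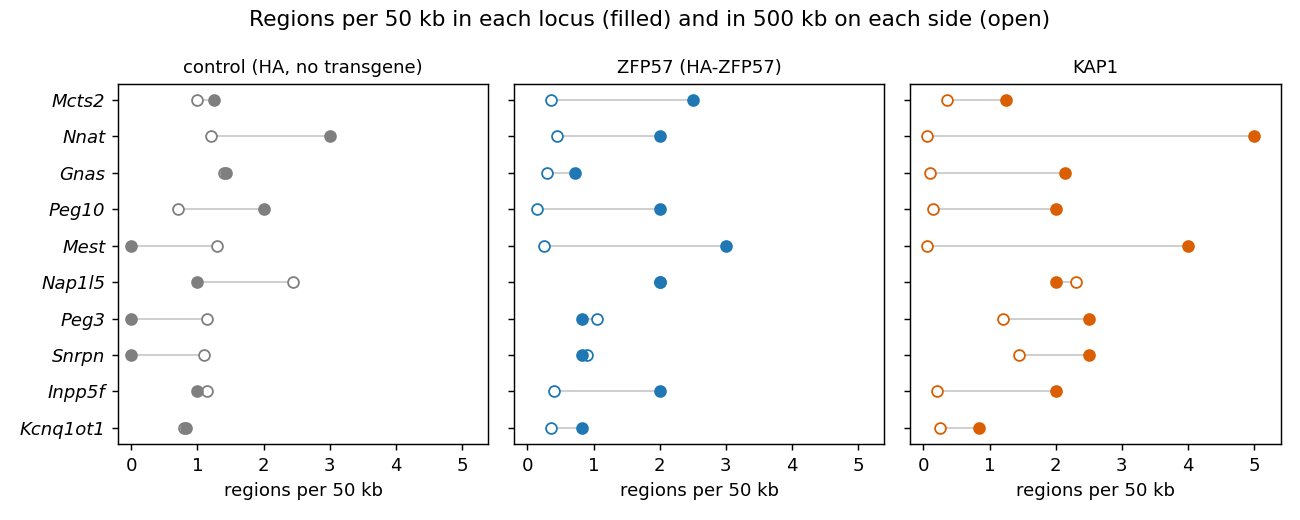
Listed regions per 50 kb (horizontal axis) inside each locus window (filled points) and in 500 kb on each side (open points) for the control, ZFP57 and KAP1 lists, 1 library each. At Snrpn KAP1 is 2.50 in the window and 1.45 beside it, and at Nap1l5 all 3 lists have dense flanks, the control the most with 2.45.

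Sites were also compared with like sites elsewhere. ZFP57 and KAP1 regions no more than 2 kb apart were joined, and a joined group was kept where it held a pair free of the control. This gave 1248 sites, of which 10 were members, 1 at each locus. In 573 sites no control region overlapped or touched the span from first to last base, gaps between joined regions included. Of the 10 members 9 were among them, the exception being Mcts2. In these 9, KAP1 regions outnumbered ZFP57 regions at 5 (Nnat, Gnas, Mest, Peg3 and Snrpn), and numbers were equal at Peg10, Nap1l5, Inpp5f and Kcnq1ot1. Among the 573 sites KAP1 outnumbered ZFP57 in 20.4%. Over all 1248 sites it did so in 36.3%, beside 5 of the 10 members. At least 3 KAP1 regions were present at 4 of the 9 (Nnat, Mest, Peg3 and Snrpn), beside 8.38% of the 573, while 1 region of each list was the whole site at 3 of 9 (Peg10, Inpp5f and Kcnq1ot1), beside 64.6%. Regions were counted without merging, and the KAP1 regions at Snrpn include an overlapping pair. No control region lay within 10 kb of 7 of the 9, all but Nnat and Peg10, beside 43.3% of the 573. The member sites covered 686 bp at the median and the 573 sites 223 bp. The order depended on the sites compared. The 1248 sites include those with a control region within or touching their span. Of them, 47.4% had at least 3 KAP1 regions and 29.7% had 1 region of each list, with a median of 1829 bp. For the 10 member sites these values were 4 of 10, 3 of 10 and 745 bp, so the members were larger than the 573 sites by the median and smaller than the 1248. From midpoint to midpoint, the nearest other site of the 1248 lay between 109 kb (Peg3) and 4750 kb (Mest) from the member sites.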

How the data were processed

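ChIP-seq of mouse ES cells was used as 3 deposited lists of regions, 1 library per group (control HA ChIP, HA-ZFP57 ChIP, KAP1 ChIP). Per the submitters' processing notes, reads were aligned with Bowtie to mm9. Not given in the sources used here are Bowtie's version, the peak caller with its threshold, how reads with several matching places were handled and whether a control was subtracted. The lists have no score or count, so depth is unknown and a region missing from a list may lie just under its threshold.

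Regions were assigned to the 10 windows by their start. The members and lists were chosen with earlier results of these data known. All member genes are named, and coordinates are given for every ZFP57 region and for some of the KAP1 regions, the others being placed by their distance or overlap. Overlap was counted from 1 bp, and bedtools 2.31.1 gave identical numbers for all 6 ordered pairs. The code was also tested on simulated data. Background windows of 50 kb ran between the lowest and highest position listed on each chromosome, the mitochondrial sequence left out, so some hold sequence to which no read can be mapped. Positions are 1-based. Pathway and neighbouring genes were not analysed here, since no mm9 gene positions were used. Promoter sequences came from RefSeq (GRCm38.p6). Software was pandas 2.3.3, scipy 1.17.1 and numpy 2.4.6 under Python 3.11.15, with matplotlib 3.10.9 for figures. Alternatives changed the overlap rule, merging, window width and background windows.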

Additional observations from a re-analysis of the deposited data

How the results depend on the processing

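Leaving out a replicate was not possible, since every group is a single library. No paired analysis was possible because there are no replicate numbers to pair. Overlap of 75 bp, midpoints within 500 bp and merging of touching regions left all 10 loci with a ZFP57 and KAP1 pair; the pair free of control overlap was kept at 9 loci under the 75 bp rule, because the Peg10 overlap is 74 bp. Windows widened by 25 kb on each side gained 0 ZFP57 and 0 KAP1 regions, while the control sum rose from 11 to 18 and loci with a pair and no control region went from 3 to 2. Windows narrowed by 10 kb held 7 control, 16 ZFP57 and 24 KAP1 regions, and 5 loci had a pair and no control region. Leaving out ZFP57 and KAP1 regions within 10 kb of a control region, chosen after seeing the data, left 10 ZFP57 and 18 KAP1 regions, a pair at 7 loci, and 100% of those ZFP57 regions on KAP1. Counting pairs free of control overlap was also added after seeing the data. Background windows of 40 and 70 kb gave 34.0 and 47.6% with a control region, 12.9 and 20.1% with ZFP57, 9.80 and 15.1% with KAP1, 3.10 and 4.74% with a pair and 1.57 and 2.39% with a pair free of control overlap. Unknown depth and threshold limit every comparison between lists.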
